A study of Sus scrofa with 17 samples.

Results

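DBP, TEF and PER3 are 3 clock output genes out of 26560 genes counted by RNA sequencing in 17 pig kidneys. They were chosen by their levels in G3 against G1, and kidney 3 of G3 was singled out with them, so the G3 and G1 values describe that choice and carry no test here. Each kidney came from a different female Dutch Landrace pig aged between 6 months and 1 year, and the kidneys were collected at a slaughterhouse. Every kidney went through 32 min of warm ischemia, 24 h of hypothermic machine perfusion (HMP) and 5 h of normothermic machine perfusion (NMP) with autologous blood cells. The treatment was pUPC-EVs, which are extracellular vesicles released by porcine urine progenitor cells. G1 (5 kidneys) received only the saline vehicle PBS, G2 (6 kidneys) received pUPC-EVs during HMP alone, and G3 (6 kidneys) received them during both HMP and NMP. One biopsy per kidney was frozen for RNA when NMP ended. No group was left unperfused, so the levels are those of ischemic, perfused organs.

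The circadian clock is a transcription loop that runs in most cells, the tubule cells of the kidney included. BMAL1 pairs with CLOCK or NPAS2 and switches on genes through E-box elements. The PER and CRY proteins made from such genes then block that pair, while REV-ERB proteins (NR1D1, NR1D2) repress BMAL1. DBP (albumin D-box binding protein) and TEF (thyrotroph embryonic factor) are PAR bZIP transcription factors that carry the rhythm to D-box elements of downstream genes. PER3 is a period protein of the repressive arm. In a running clock DBP, the REV-ERB genes and PER3 peak in the phase opposite to BMAL1 and NPAS2. One biopsy per kidney gives a level and not a phase, and the hour of collection is not given in the sources used here.

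The libraries held 19270046 to 24736473 counts (median 21504848), and levels are given as CPM, counts scaled to the library size with TMM factors. DBP rested on 58 to 507 counts, TEF on 312 to 1384 and PER3 on 121 to 406, so all 3 genes were detected in every kidney. All 11 kidney tubule markers were present in every kidney, with LRP2, the megalin receptor of the proximal tubule, between 1549 and 3380 CPM. The sample codes fall in 3 runs of numbers, with 2 G1, 2 G2 and 1 G3 kidneys in the lowest run, 2 G1 and 1 G3 kidneys in the middle run and 1 G1, 4 G2 and 4 G3 kidneys in the highest. What the runs stand for is not stated.

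DBP spread widely between kidneys that had the same treatment. In G1 the DBP levels were 13.8, 16.0, 7.57, 19.9 and 22.0 CPM in kidneys 1 to 5. In G2 they were 11.8, 2.44, 22.3, 10.6, 19.4 and 15.8 CPM in kidneys 1 to 6. In G3 they were 11.3, 3.80, 19.9, 2.65, 5.16 and 7.39 CPM in kidneys 1 to 6. Kidney 2 of G2 was the lowest of all 17 kidneys, and kidney 3 of G3 stood among the G1 kidneys. The highest kidney exceeded the lowest by 2.90-fold in G1, 9.15-fold in G2 and 7.53-fold in G3. Group levels were 15.9 ± 5.64 CPM in G1 (SD, n = 5), 13.7 ± 7.09 in G2 (SD, n = 6) and 8.37 ± 6.43 in G3 (SD, n = 6).

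TEF was low in 5 of the G3 kidneys and high in 1. In G1 the TEF levels were 28.4, 58.1, 38.8, 63.6 and 50.9 CPM in kidneys 1 to 5. In G2 they were 47.4, 12.5, 58.4, 39.6, 61.8 and 61.5 CPM in kidneys 1 to 6. In G3 they were 24.1, 20.5, 53.5, 14.6, 22.7 and 23.7 CPM in kidneys 1 to 6. Of these G3 values 5 lie below every G1 kidney, and only kidney 3 does not. Group levels were 47.9 ± 14.4 CPM in G1 (SD, n = 5), 46.9 ± 19.0 in G2 (SD, n = 6) and 26.5 ± 13.7 in G3 (SD, n = 6).

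PER3 had the smallest spread of the 3 in the kidneys given PBS alone. In G1 the PER3 levels were 8.59, 10.2, 10.9, 10.6 and 12.3 CPM in kidneys 1 to 5. In G2 they were 12.2, 5.24, 6.71, 8.44, 15.6 and 9.80 CPM in kidneys 1 to 6. In G3 they were 6.47, 6.91, 16.0, 7.07, 7.30 and 6.17 CPM in kidneys 1 to 6. The same G3 kidney was again high, here the highest of all 17, and the other 5 fell within a narrow band below every G1 kidney. Group levels were 10.5 ± 1.35 CPM in G1 (SD, n = 5), 9.67 ± 3.79 in G2 (SD, n = 6) and 8.31 ± 3.77 in G3 (SD, n = 6).

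**Figure D1:**
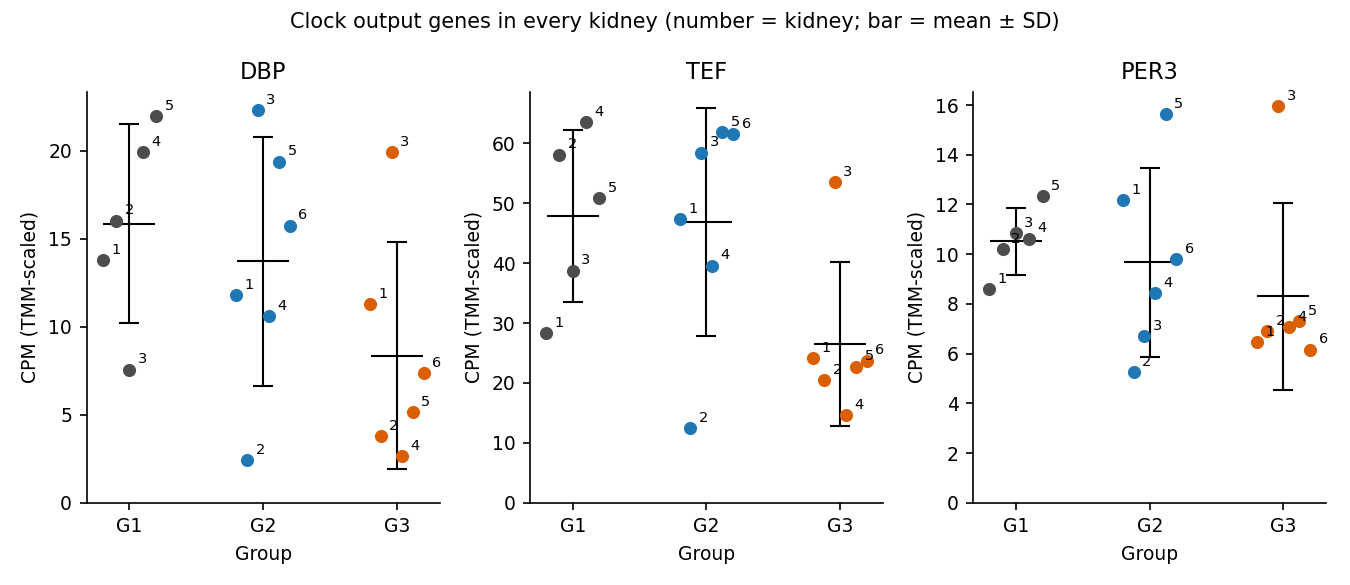
Levels of DBP, TEF and PER3 (vertical axes, TMM-scaled CPM) in each kidney of G1, G2 and G3; points are kidneys, numbered within their group, and bars are the mean ± SD. Kidney 3 lies above the other G3 kidneys for all 3 genes, and kidney 2 is the lowest G2 kidney for all 3.

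The spread within groups was set beside that of the 13711 genes with a mean of at least 1 CPM. On the log2 CPM scale the SD of DBP was 0.60 in G1, 1.14 in G2 and 1.05 in G3, against a median gene at 0.25, 0.32 and 0.27. These DBP values lie at percentiles 90.8, 97.4 and 97.5 of those genes. TEF had SDs of 0.47, 0.88 and 0.61, at percentiles 83.0, 94.5 and 89.8. PER3 had an SD of 0.19 in G1, at percentile 31.2, and of 0.57 in G2 and 0.51 in G3, at percentiles 83.4 and 83.8. The wider spread rested in part on single kidneys. Without kidney 2 of G2 the G2 SD was 0.45 for DBP, 0.28 for TEF and 0.47 for PER3. Without kidney 3 of G3 the G3 SD was 0.80 for DBP, 0.30 for TEF and 0.097 for PER3. In G1 the SD of DBP was 0.30 without kidney 3, and those of TEF and PER3 were 0.31 and 0.12 without kidney 1. The difference in spread between groups was not tested. Choosing genes for a difference between G3 and G1 favours a small spread in those 2 groups.

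The genes were chosen from the study's own fit of G3 against G1. In the edgeR fit made here, with all kidneys of both groups, the log2 fold change was -0.92 (SE 0.40) for DBP, -0.86 (SE 0.27) for TEF and -0.34 (SE 0.23) for PER3. In G3, 4 of 6 kidneys lay below every G1 kidney for DBP, and 5 of 6 did so for TEF and for PER3. For the summed endothelial markers given below, all G3 kidneys except kidney 3 lay above every G1 kidney (888.0 to 1013 against 689.9 to 790.8 CPM). Whether these shifts are linked was not tested. In none of the 3 genes were the groups fully apart, against 0.187% of all genes with G3 wholly below G1. Without kidney 3 of G3 the log2 fold changes were -1.39 for DBP, -1.19 for TEF and -0.64 for PER3. The study's reported fold changes for the 3 genes lay closer to these than to those of the full fit, and the reason was not tested. Within the runs of sample codes, from the lowest to the highest, G3 minus G1 was -0.39, -1.67 and -1.70 log2 units for DBP. It was -0.75, -1.27 and -0.99 for TEF and -0.53, -0.63 and -0.54 for PER3. Every one of these rests on a single kidney in 1 of the groups. Across all genes, 2 of 25719 (0.00778%) passed an adjusted p of 0.05 in this contrast, and neither is on the clock lists. DESeq2 called 31, and leaving out 1 kidney gave 0 to 9. The 2 genes called by edgeR were both lower in G3, and they are named here after their values were seen. One is BCAT2, a mitochondrial enzyme of branched-chain amino acid breakdown (log2 fold change -0.77, edgeR adjusted p = 0.0229), and the other is known only as ENSSSCG00000050204.

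The kidneys of G2 were not in the G3 against G1 contrast, whereas those of G1 were. The values of the 3 genes in G2 against G1 thus carry no test. In G2 against G1 the log2 fold change was -0.21 (SE 0.38) for DBP, -0.03 (SE 0.30) for TEF and -0.12 (SE 0.24) for PER3. By edgeR 0 of all 25699 genes (0%) passed an adjusted p of 0.05 in that comparison, and 901 (3.51%) had an unadjusted p below 0.05. DESeq2 called 1 gene. The sign for each of the 3 genes rested on kidney 2 of G2, without which the values were 0.0094, 0.17 and 0.0052. Within code runs that hold both groups, G2 minus G1 was -1.45 in the lowest run and -0.42 in the highest for DBP. The same differences were -0.74 and 0.10 for TEF and -0.22 and -0.35 for PER3. With code runs as a covariate in edgeR, DBP had a log2 fold change of -0.77.

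In G3 against G2 the log2 fold change was -0.71 (SE 0.46) for DBP, -0.82 (SE 0.33) for TEF and -0.21 (SE 0.28) for PER3. The G3 kidneys of this comparison are those that entered the choice, so these values carry no test. For each of the 3 genes 5 of 6 G3 kidneys lay under the G2 median, but none lay under every G2 kidney, against 0.0389% of all genes with G3 wholly below G2. By edgeR 0 of all 25701 genes (0%) passed the adjusted p and 805 (3.13%) had an unadjusted p below 0.05. DESeq2 called 3 genes. Leaving out kidney 3 of G3 gave -1.17 for DBP, -1.14 for TEF and -0.51 for PER3, and leaving out kidney 5 of G2 gave -0.02 for PER3. Within code runs, G3 minus G2 was 1.06 log2 units for DBP in the lowest run and -1.28 in the highest. TEF differed by -0.01 and -1.09, and PER3 by -0.30 and -0.19.

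DBP and TEF moved together from kidney to kidney. Because group means chose the genes, only deviations of each kidney from its own group were related, on the log2 CPM scale and over all 17 kidneys. Over all 17, DBP and TEF had a Pearson r of 0.898 and a Spearman rho of 0.892. Kidney 3 of G3 was singled out with the genes, so relations over all 17 kidneys are a description. The other G1 and G3 kidneys entered the choice too. Here and below, values without kidney 3 of G3 are thus also a description. The G2 kidneys lay outside the G3 against G1 contrast, but the coordination of the genes in all 3 groups was named with the choice. Values in G2 alone are therefore a description too. Without kidney 3 of G3 r was 0.869 and rho was 0.853. Without kidney 2 of G2 and kidney 3 of G3, the 2 kidneys farthest from the median of DBP, r was 0.685. Leaving out any 1 kidney kept r between 0.816 and 0.932. In the 6 G2 kidneys alone r was 0.983 (exact permutation p = 0.00694, adjusted over 3 pairs 0.0208). Their rho was 0.829 (exact permutation p = 0.0583, adjusted 0.175). In G3 alone r was 0.913, and the rising order of the kidneys was the same for both genes, namely 4, 2, 5, 6, 1 and 3. The 5 G1 kidneys were held too few for a correlation here. Their rising order was 3, 1, 2, 4 and 5 for DBP and 1, 3, 5, 2 and 4 for TEF, so the genes did not share an order in G1.

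PER3 had a lower r with each of the other 2 genes. Over all 17 kidneys TEF and PER3 had an r of 0.728 and a rho of 0.610, and DBP and PER3 had an r of 0.594 and a rho of 0.375. Without kidney 3 of G3 r was 0.624 for TEF and PER3 (permutation p = 0.0715, adjusted over 3 pairs 0.107) and 0.433 for DBP and PER3 (permutation p = 0.242). The rho values were then 0.315 and 0.168 (permutation p = 0.319 and 0.581). Without kidney 2 of G2 as well, r was 0.211 and -0.0725. In G2 alone the same pairs had r of 0.693 (exact permutation p = 0.124) and 0.610 (exact permutation p = 0.208). In G3 alone they had r of 0.852 and 0.641 but a rho of 0.0857 for both, and apart from kidney 3 the G3 kidneys lay between 6.17 and 7.30 CPM of PER3. The rising order of G3 kidneys for PER3 was 6, 1, 2, 4, 5 and 3. Whether the 3 correlations differ from each other was not tested.

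**Figure D2:**
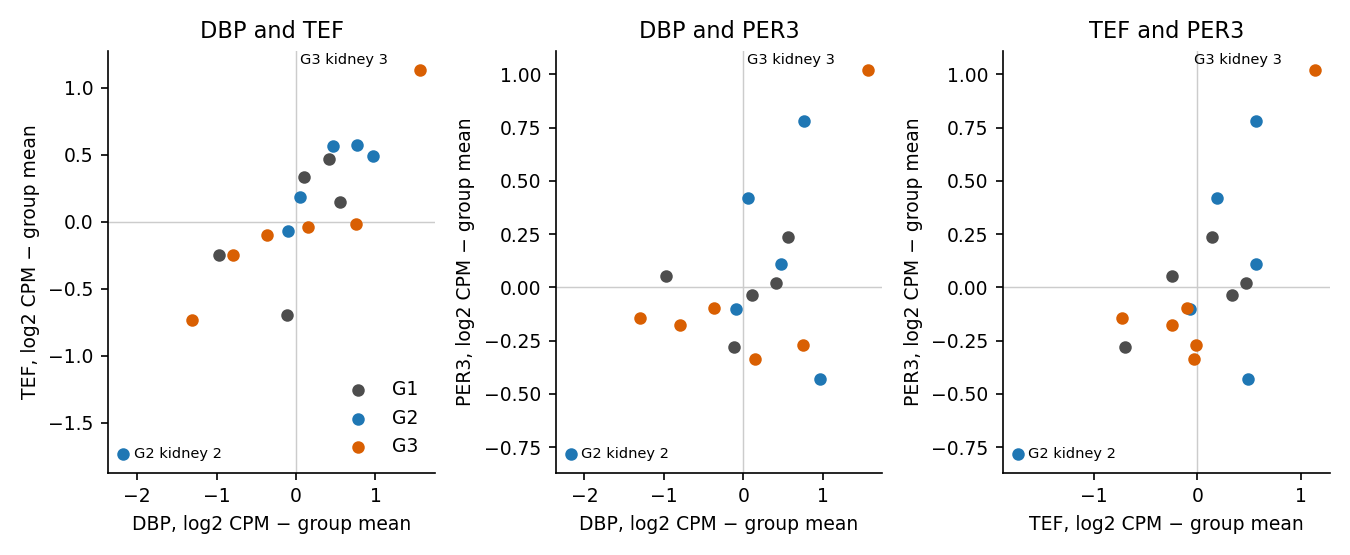
Each kidney's deviation from its group mean (log2 CPM, both axes) for the pairs DBP and TEF, DBP and PER3, and TEF and PER3, with points coloured by group. Points for DBP and TEF lie along a line (r 0.898), while the trends with PER3 are carried by the labelled kidneys, G2 kidney 2 and G3 kidney 3.

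Other clock genes were listed by role, and 43 of 45 were matched to a counted gene. In each group comparison 0 of the 43 passed an adjusted p of 0.05 by edgeR. At an unadjusted p below 0.05 there were 2 in G3 against G1 (beside 4.73% of all genes), 4 in G2 against G1 (beside 3.51%) and 1 in G3 against G2 (beside 3.13%). DESeq2 and voom also called 0 of the 43 in each comparison. In G3 against G1 the activators BMAL1, CLOCK, NPAS2 and BMAL2 all had positive log2 fold changes with a median of 0.20, beside a median of -0.02 over all genes. Of the 7 repressors other than PER3, 5 were negative, with a median of -0.11. PER2, the close relative of PER3, had -0.57 (SE 0.26, edgeR unadjusted p = 0.0396, adjusted 0.813). HLF, the remaining PAR bZIP factor, had -0.41 (SE 0.21, edgeR adjusted p = 0.813). FKBP5, a glucocorticoid-induced chaperone partner, had 0.58 (SE 0.21, edgeR adjusted p = 0.813) in G3 and 0.57 (SE 0.14, edgeR adjusted p = 0.840) in G2, both against G1.

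The members of the clock lists were next related to DBP across kidneys, again after centring by group. Of 41 clock genes with a mean of at least 1 CPM, 25 had a positive r and 16 a negative one, beside 50.4% of all genes with a positive r. Without kidney 3 of G3, 22 were positive, beside 48.5% of all genes. An unadjusted permutation p below 0.05 was then found for 7 of the 41 (17.1%), beside 5.08% of all 13710 genes, and 0 passed after adjustment over the 41, by r or by rho. The highest r over all 17 kidneys was that of NR1D1, which encodes REV-ERB alpha, at 0.758 with a rho of 0.760. Its r without kidney 3 of G3 was 0.702 (permutation p = 0.00509, adjusted 0.209) and its rho 0.709 (permutation p = 0.00622, adjusted 0.148). Without the 2 kidneys farthest from the median of DBP its r was 0.579, and it stayed between 0.689 and 0.863 when any 1 kidney was left out.

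NPAS2 and BMAL1 of the activating arm had the lowest r with DBP. Over all 17 kidneys NPAS2 had an r of -0.696 and BMAL1 one of -0.627, with rho of -0.669 and -0.667. Leaving out kidney 3 of G3, they had r of -0.610 and -0.592 (adjusted permutation p = 0.270 for both) and rho of -0.591 and -0.585 (adjusted permutation p = 0.267 for both). Without the 2 kidneys farthest from the median r was -0.408 and -0.396. CLOCK, whose transcript is known to cycle weakly in many tissues, had -0.226 over all 17 and -0.300 without that kidney (permutation p = 0.217).

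On the repressor side CRY2 had an r of 0.668 over all 17 kidneys and 0.576 without kidney 3 of G3 (adjusted permutation p = 0.270). CIART had 0.633 and 0.591 (adjusted permutation p = 0.270), and PER1 had 0.486 and 0.312 (adjusted permutation p = 0.515). PER2 had 0.273 and 0.0625 (adjusted permutation p = 0.956), and CRY1 had -0.224 and -0.379 (adjusted permutation p = 0.416). USP2, a rhythmic deubiquitinase, had 0.620 and 0.511 (adjusted permutation p = 0.270), and HLF had 0.233 and 0.203 (adjusted permutation p = 0.807). Without the 2 farthest kidneys r was 0.261 for CRY2, 0.647 for CIART, 0.299 for PER1 and 0.258 for USP2. It was then 0.040 for PER2, -0.256 for CRY1 and -0.467 for HLF, whose sign turned.

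**Figure D3:**
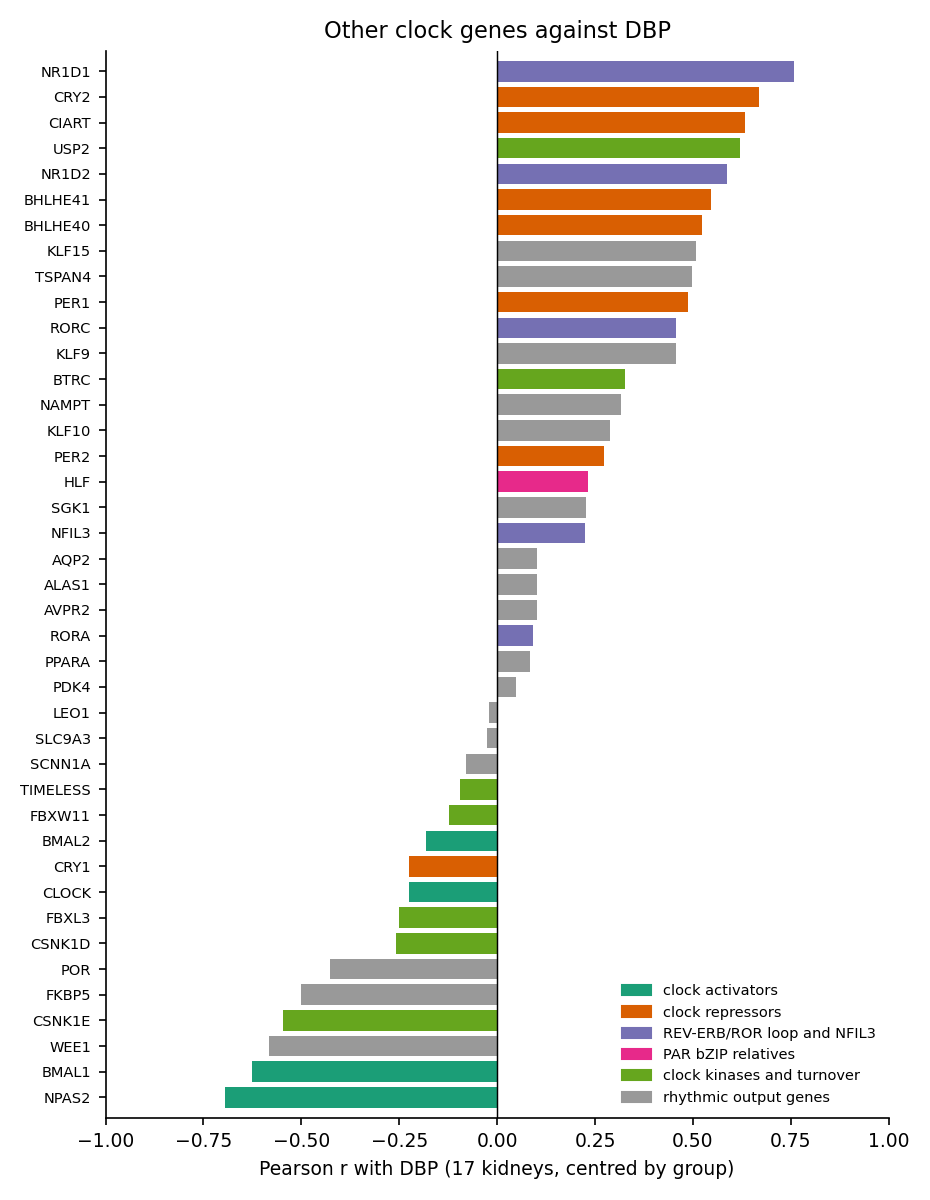
Pearson r with DBP (horizontal axis, 17 kidneys, log2 CPM centred by group) of the 41 other clock genes, coloured by role. NR1D1 is at the upper end with 0.758 and NPAS2 at the lower end with -0.696; without kidney 3 of G3 these were 0.702 and -0.610, and 0 of the 41 passed the adjusted permutation test.

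NR1D1 and the activators can be seen kidney by kidney at the ends of the DBP range. In G2, NR1D1 was 30.2, 30.8, 79.9, 60.3, 52.7 and 103.5 CPM in kidneys 1 to 6, and in G3 it was 43.3, 33.5, 72.8, 29.1, 41.3 and 51.9 CPM. NPAS2 was 33.3, 41.0, 30.0, 33.7, 28.5 and 20.2 CPM in G2 and 35.3, 35.9, 26.0, 48.1, 36.5 and 34.5 CPM in G3. Thus kidney 4 of G3, lowest in that group for DBP and TEF, was also lowest for NR1D1 and highest for NPAS2. Kidney 3 of G3 was at the opposite end for all 4 genes. In G2 the ends did not all match. Kidney 2 of G2, lowest for DBP and TEF, was highest for NPAS2, but NR1D1 was lowest in kidney 1. DBP was highest in kidney 3 of G2 and TEF in kidney 5, while kidney 6 had the highest NR1D1 and the lowest NPAS2. BMAL1 in G3 was 18.4, 17.6, 13.4, 18.8, 20.5 and 11.0 CPM, so kidney 6 and not kidney 3 was the lowest.

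Kidney 3 of G3, coded E322, was the highest G3 kidney for all 3 genes. It was singled out together with the genes, so its values are a description with no test. It exceeded the mean of the other 5 G3 kidneys by 1.88 log2 units for DBP, 1.36 for TEF and 1.23 for PER3. Among all 17 kidneys, counted from the lowest, it ranked 14 for DBP, 12 for TEF and 17 for PER3. On the log2 scale the other 5 G3 kidneys lay below the G1 mean by a difference of -1.46 for DBP, -1.14 for TEF and -0.62 for PER3. Its gap to the next G3 kidney took up 0.824 of the G3 range for PER3, 0.615 for TEF and 0.283 for DBP.

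Some other clock genes also had their highest G3 level in this kidney. PER1 was 290.5 CPM there against 35.8 to 142.3 in the other G3 kidneys, PER2 was 36.2 against 9.99 to 25.2, and CRY2 was 127.7 against 52.7 to 71.6. The repressors CIART, CRY1 and BHLHE41 ranked 5 of 6 there, at 0.67, 0.21 and 0.31 log2 units above the mean of the others. Among the activators NPAS2 was the lowest of G3 (26.0 CPM against 34.5 to 48.1), BMAL2 was the highest (0.65 log2 units above the others) and CLOCK lay 0.11 above. Of the 41 clock genes, 18 (43.9%) had their highest G3 level in this kidney and 4 (9.76%) their lowest. Over all 13711 genes those shares were 16.4% and 15.0%. Clock genes share regulators and were listed with the member values known, so these shares are a description.

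Kidney 2 of G2 was the lowest G2 kidney for all 3 genes. Its log2 CPM minus the mean of the other 5 G2 kidneys was -2.61 for DBP, -2.08 for TEF and -0.94 for PER3. Its DBP and TEF values passed Dixon's gap criterion, with 0.661 and 0.721 of the range against a critical 0.625. Over all 13711 genes this kidney passed it on the low side in 0.489%, and some G2 kidney passed it in 4.03%. NPAS2 (41.0 CPM against 20.2 to 33.7) and BMAL1 (17.9 against 8.39 to 14.0) were the highest of G2 there. HLF was 15.8 CPM against 27.8 to 64.1. Within the range of the other G2 kidneys lay NR1D1 (30.8 CPM against 30.2 to 103.5), PER1 (69.5 against 46.5 to 219.3) and PER2 (20.3 against 12.5 to 47.0). Here 7 of the 41 clock genes (17.1%) were at their highest and 11 (26.8%) at their lowest within G2, against 18.5% and 21.7% of all genes. The deviations of this kidney and of kidney 3 of G3 had opposite signs for 31 of the 41 clock genes (75.6%), beside 46.1% of all genes, and the same sign for 10, among them BMAL2, CRY1 and FBXW11, which was the highest of its group in both.

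**Figure D4:**
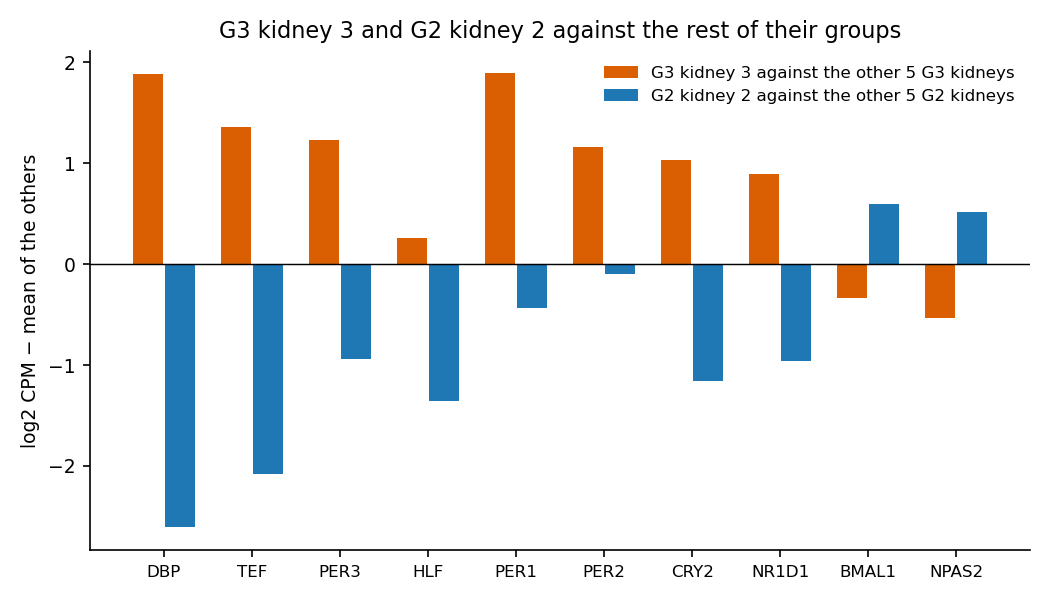
Difference in log2 CPM (vertical axis) between G3 kidney 3 and the mean of the other 5 G3 kidneys, and between G2 kidney 2 and the mean of the other 5 G2 kidneys, for the 3 output genes and 7 other clock genes. The bars point in opposite directions in the 2 kidneys for each of the 10 genes shown, which were picked from the lists, though in G2 kidney 2 NR1D1, PER1 and PER2 stayed within the range of the other kidneys.

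Kidneys with higher endothelial marker sums tended to have lower DBP and TEF, but no such relation passed adjustment once kidney 3 of G3 was left out. Without it, 0 of 21 relations of the members with marker lists, library size and genes detected passed adjustment by r or by rho. The summed level of 5 endothelial markers (PECAM1, CDH5, KDR, TEK and EMCN, all detected in every kidney) had an r of -0.726 with DBP (rho -0.662), -0.691 with TEF (rho -0.637) and -0.600 with PER3 over all 17 kidneys. Without kidney 3 of G3, r was -0.631 with DBP (adjusted permutation p = 0.121), -0.577 with TEF (adjusted permutation p = 0.270) and -0.359 with PER3 (adjusted permutation p = 0.803). Without the 2 kidneys farthest in the markers, r was -0.621, -0.540 and 0.0678. The sum ranged from 689.9 to 790.8 CPM in G1, from 550.4 to 1107 in G2 and from 562.5 to 1013 in G3. Kidney 3 of G3 was at 562.5 CPM against 888.0 to 1013 in the other G3 kidneys, and kidney 2 of G2 had the highest sum of G2.

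The 6 leukocyte markers, of which MS4A1 was at 0 in 1 kidney, had a summed level of 95.4 to 121.0 CPM in G1, 91.1 to 169.1 in G2 and 107.0 to 126.6 in G3. Over all 17 kidneys their r was -0.717 with TEF (rho -0.542), -0.632 with DBP and -0.283 with PER3. CD68, a macrophage gene, made up most of the sum with a median of 74.0 CPM. On its own it had an r of -0.543 with DBP, while the other 5 had r between -0.308 and -0.0674. With kidney 3 of G3 left out the sum had -0.738 with TEF (adjusted permutation p = 0.121) and -0.638 with DBP (adjusted permutation p = 0.168). Without kidneys 2 and 3 of G2 the values for TEF, DBP and PER3 were -0.452, -0.252 and -0.206. The 11 tubule markers had r between 0.172 and 0.424 with the 3 genes, and 3 of the 4 podocyte markers were found, with r between -0.371 and -0.136. The 3 red blood cell markers found summed to at most 5.09 CPM in any kidney. Total counts had r of 0.189, -0.0313 and -0.0257 with DBP, TEF and PER3 over all 17 kidneys. Without kidney 3 of G3 the r was -0.00046 with DBP, -0.281 with TEF (adjusted permutation p = 0.509) and -0.409 with PER3 (adjusted permutation p = 0.121). Without kidneys 3 and 5 of G3, the farthest in total counts, it was -0.0235, -0.383 and -0.561. The part of cell makeup in these results was not tested, and in bulk tissue fewer cells of a type and less RNA per cell cannot be told apart.

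The genes whose pattern was most like that of the members were ranked by r over the 17 kidneys, among 13710 genes and as a description. For DBP, TEF took rank 3, behind DNAI3 (0.925), a dynein intermediate chain, and CEP164 (0.907), a protein of the centriole's distal appendages. For TEF, DBP took rank 2, behind RFX5 (0.922), a regulator of MHC class II genes. IDO2, an enzyme of tryptophan breakdown, was among the 5 nearest genes of both, with 0.870 for DBP and 0.865 for TEF. RFX5 was also at rank 5 for DBP with 0.863, and ANKRA2 (0.878) and KLHL24 (0.874) completed the list for TEF. The nearest genes of PER3 were NT5DC3 (0.850), KIF18A (0.793), PCNX4 (0.784), MEGF6 (0.783) and METTL4 (0.783). From the side of PER3, TEF ranked 22 and DBP 204, and the clock gene ranked highest besides TEF was HLF, at 61 with 0.678. NPAS2 was rank 35 from the lowest for DBP and rank 15 from the lowest for TEF.

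Genes near the 3 output genes on the chromosome were also examined, limited to annotated genes whose symbol was matched in the counts. In the RefSeq annotation of Sscrofa11.1, DBP lies at chr6:53986955-53993044, TEF at chr5:7119354-7135171 and PER3 at chr6:68487634-68548718. SPHK2, a sphingosine kinase that ends 176 bp from DBP, had an r of -0.0726 with it, and CA11, which begins 139 bp beyond the other end, had 0.311 at a mean of only 1.05 CPM. Among the 3 nearest such genes on each side, TOB2 had 0.607 with TEF and TNFRSF9 had -0.613 with PER3. Some were far off, as DNAJC11 and THAP3 lay 957676 and 1024234 bp from PER3. By edgeR, DESeq2 and voom, 0 of the 18 neighbours passed an adjusted p of 0.05 in any of the 3 comparisons, while SPHK2 had an unadjusted p of 0.0461 in G3 against G1 and CHADL one of 0.0158 in G2 against G1 and 0.00761 in G3 against G2.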

How the data were processed

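Per the study's methods and labels, the authors prepared stranded mRNA libraries, trimmed reads with cutadapt 4.0, aligned them with STAR to Sscrofa11.1 and deposited raw counts per gene; the counting program and its strand setting are not given in the sources used here. The authors' own table of fold changes and p-values for G3 against G1 was not used in the fits made here. DBP, TEF, PER3 and the gene lists were chosen with earlier results of these data known. Deposited counts were tested per pair of groups with edgeR 4.0.16 (TMM, genes with at least 1 count, quasi-likelihood test, Benjamini-Hochberg, R 4.3.3). Log2 CPM used a prior count of 2. Relations between kidneys used deviations from group means and 100000 shuffles within groups, or all 720 pairings for 6 kidneys. The planned tests over 17 kidneys include kidney 3 of G3, so their p-values are not given. P-values without it are given for relations that did not pass adjustment, as a description, since G1 and G3 kidneys entered the choice. DBP and TEF, the only tested relation that passed adjustment without that kidney, is given without those p-values. P-values in G2 alone are a description too. All tests were two-sided, and the methods were tested on simulated data. Symbols were matched for 15094 of 26560 genes. Alternatives were DESeq2 1.42.0, limma 3.58.1 voom with quality weights, other scalings and filters, code runs, a replicate block and leaving out each kidney. Genes named were taken from the members, the clock and marker lists, 3 neighbours on each side and the 5 most alike named genes; other clock list genes are given by counts, and the 2 genes called in G3 against G1 were added after their values were seen. No 2 kidneys of a group had equal counts (chi-square per degree of freedom 21.4 to 152.7 over 40 pairs).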

Additional observations from a re-analysis of the deposited data

Results flagged for a closer look

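A kidney was singled out where its gap to the nearest kidney of its group, divided by the range of the group, passed Dixon's critical value. Over 46 genes in 3 groups, 15 of 138 such checks did so, which is 10.9%, beside 5.55% of such checks over all 13711 genes. Chance gives about 6.9 of 138 if the checks are independent, which those of clock genes in the same kidneys are not. The 15 include 2 for kidney 3 of G3, which was singled out when the genes were chosen, so its ratios are a description and no test. Kidney 2 of G2 was low for DBP, with a ratio of 0.661 (2.44 CPM against 10.6 to 22.3 in the rest of G2), and for TEF, with 0.721 (12.5 CPM against 39.6 to 61.8). Kidney 3 of G3 was high for PER3, with 0.824 (16.0 CPM against 6.17 to 7.30), and for CRY2, with 0.654. Kidney 1 of G1 passed the same criterion in 3.42% of all genes and kidney 1 of G3 in 2.22%, against 0.379% to 1.49% for each of the other kidneys. Kidney 1 of G1 stood apart for CLOCK (0.805), RORB (0.719), CSNK1E (0.769), BTRC (0.828), KLF9 (0.753) and SLC9A3 (0.727). Kidney 2 of G2 also stood apart for KLF9 (0.785). Kidney 1 of G3 stood apart for SLC9A3 (0.726) and PPARA (0.806), kidney 6 of G3 for CSNK1D (0.767) and kidney 4 of G1 for TSPAN4 (0.812).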

How the results depend on the processing

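Counts of genes past an adjusted p of 0.05 were small and moved with the method. For G3 against G1 the 2 genes became 31 with DESeq2 (25 without its independent filtering, chosen after seeing the data), 11 with code runs as a covariate, 9 with the replicate block, 1 with voom or either expression filter and 0 with all 3 groups in the fit, and 0 to 9 when 1 kidney was left out (0 without kidneys 1 or 3 of G1 or 2 or 5 of G3, 1 without kidneys 1 or 4 of G3, 4 without kidney 4 of G1 and 9 without kidney 5 of G1). For G2 against G1 the 0 became 1 with DESeq2 under either filtering and 2 with code runs, and was 0 without any 1 kidney. For G3 against G2 the 0 became 3 with DESeq2 under either filtering, 7 with the replicate block and 0 to 5 when 1 kidney was left out, the 5 without kidney 2 of G2. Library size scaling alone moved the median of all genes to -0.11 log2 units in G3 against G1.

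In G3 against G1 and in G3 against G2, DBP, TEF and PER3 kept a negative log2 fold change under every alternative run, and PER3 in G3 against G1 moved from -0.34 to -0.54 with code runs. In G2 against G1 the sign turned only without single kidneys: without 1 kidney the values ran from -0.41 to 0.0094 for DBP, -0.17 to 0.17 for TEF and -0.31 to 0.0052 for PER3, each highest without kidney 2 of G2, and TEF was also above 0 without kidney 2 of G1 (0.046), kidney 4 of G1 (0.085) and kidney 4 of G2 (0.011). With code runs DBP moved from -0.21 to -0.77, TEF from -0.03 to -0.25 and PER3 from -0.12 to -0.19, and with the replicate block they were -0.46, -0.22 and -0.23.

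The r of DBP and TEF was positive under every alternative run. For DBP and PER3, r was 0.555 with code runs, -0.0725 without the 2 farthest kidneys, 0.610 in G2 alone, 0.641 in G3 alone and 0.415 to 0.729 without 1 kidney. For TEF and PER3 it was 0.211 without the 2 farthest kidneys, 0.693 in G2 alone, 0.852 in G3 alone and 0.620 to 0.831 without 1 kidney. Marker and clock gene relations without kidney 3 of G3 were added after seeing the data. Over all 17 kidneys, a description only, 1 clock gene (NR1D1) was past the adjusted permutation p with DBP. This became 0 without kidney 3 of G3, 0 with library size scaling or without the 2 farthest kidneys, 2 others (CRY2 and BHLHE40) with code runs, 7 including NR1D1 with the replicate block and 0 to 2 without 1 kidney, all chosen after seeing the data. Same-numbered kidneys of different groups had r of -0.255 to 0.445 over 16 pairs, 8 of them above 0.1. In 4 of the 16 the same number gave the best match, so the numbers are not taken as pairs. The causes of these shifts were not tested.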
